A study of Mus musculus with 23 samples.

Results

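Leukocyte adhesion molecules of the vessel wall were examined in the arteries of mice with angiotensin II (Ang II)-induced hypertension. They were the 8 genes Vcam1, Icam1, Icam2, Sele, Selp, Madcam1, Alcam and Cdh13 of 19057 gene symbols named on the chip, and every probe annotated to one of these symbols was taken. This gave 13 of the 45281 probes on the Illumina WG-6 v2.0 mouse BeadChip. For 14 days from 12 weeks of age, osmotic minipumps under the skin delivered either Ang II (490 ng/kg/min, AngII) or vehicle alone (Sham) to male C57BL/6J mice. Each array carried a pool of RNA from 2 like-treated mice, taken from 1 kind of vessel. The thoracic aorta was measured on 3 AngII and 3 Sham arrays, the abdominal aorta on 3 and 3, and the mesenteric arteries on 6 AngII and 5 Sham arrays, 23 in all. Some pools of different vessels must come from the same mice, which of them is not given in the sources used here, and arrays were treated as independent. The spread behind each p-value is therefore that between pools.

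Circulating leukocytes leave the blood in steps. Selectins on activated endothelium (Selp and Sele) bind sugar-decorated ligands such as Selplg and let leukocytes roll. Immunoglobulin-family members then hold them: Vcam1 binds the integrin VLA-4, a pair of Itga4 and Itgb1, and Icam1 and Icam2 bind integrins that contain Itgb2. Madcam1 is the addressin of mucosal venules and binds an integrin of gut-homing lymphocytes, and Alcam binds Cd6 on T cells. Cdh13 encodes T-cadherin, a lipid-anchored cadherin of endothelium and smooth muscle that binds adiponectin (Adipoq). It was grouped here with the leukocyte receptors, although adhesion of leukocytes is not its best known role. Inflammatory cytokines induce Vcam1, Icam1, Selp and Sele through NF-kappaB in mouse endothelium, whereas Icam2 is held there at a steady level. Vcam1 is also made by smooth muscle cells of inflamed arteries.

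RefSeq promoter windows (build GRCm38.p6, 250 bases before and 50 bases after the annotated start) were given for 5 of the 8 genes. The 250 bases before the start are shown for Selp and Icam1, which cytokines induce and which were detected on every array, and for Sele and Madcam1, which were detected on none. Alcam, the fifth, held no match and is not shown. All run 5′ to 3′ on the plus strand, which is the coding strand of the 4 genes. Capitals mark matches to the motifs searched.
Selp, chr1:164115014-164115263: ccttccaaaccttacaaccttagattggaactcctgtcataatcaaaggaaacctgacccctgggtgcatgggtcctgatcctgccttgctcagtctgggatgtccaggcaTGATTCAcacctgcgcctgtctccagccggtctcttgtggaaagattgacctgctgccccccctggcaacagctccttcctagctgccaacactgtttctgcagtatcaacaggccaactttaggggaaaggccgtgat
Icam1, chr9:21015690-21015939: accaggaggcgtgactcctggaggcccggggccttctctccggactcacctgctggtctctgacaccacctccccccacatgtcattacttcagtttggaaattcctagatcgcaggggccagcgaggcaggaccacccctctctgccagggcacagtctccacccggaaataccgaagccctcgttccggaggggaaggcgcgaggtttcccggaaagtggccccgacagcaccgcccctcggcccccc
Sele, chr1:164047984-164048233: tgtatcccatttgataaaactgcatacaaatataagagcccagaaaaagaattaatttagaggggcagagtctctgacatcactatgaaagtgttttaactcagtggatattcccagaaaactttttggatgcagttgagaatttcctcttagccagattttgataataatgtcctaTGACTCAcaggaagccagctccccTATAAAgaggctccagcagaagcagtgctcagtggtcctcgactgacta
Madcam1, chr10:79664309-79664558: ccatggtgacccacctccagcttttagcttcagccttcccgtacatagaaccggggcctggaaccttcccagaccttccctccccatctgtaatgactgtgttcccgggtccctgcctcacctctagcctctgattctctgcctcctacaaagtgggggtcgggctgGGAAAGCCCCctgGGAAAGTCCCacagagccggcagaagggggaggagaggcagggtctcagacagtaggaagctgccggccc

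Both strands were searched for the kappaB element in its strict form, which allows no departure from the consensus, the AP-1 element TGANTCA (N stands for any base), the TATA box TATAAA and the GATA element AGATAA. Madcam1 held the kappaB element at 2 places (capitals, read on the minus strand), which 1 of the 5 member promoters and 4.51% of all 32851 promoters did. With 1 base off the consensus allowed, 4 of the 5 member promoters (all but that of Alcam) and 45.5% of all promoters held it, and these looser matches are not in capitals. Selp and Sele each held the AP-1 element, first base at -139 and -73 from the start, which 7.81% of promoters hold. Sele held a TATA box at -49, and Icam1 held one at 14, past the start and so outside the stretch shown (13.6% of promoters hold one). No GATA element was found in the 5 windows (11.2% of promoters hold one), which says only that these letters are not there. Selp and Sele lie on chromosome 1 with 56776 bases between their annotated ends, and the start used for the Sele window lies inside the annotated span of that gene (164039614 to 164058487). The selectin gene Selp gave signal on all 23 arrays, and the probe of its neighbour Sele (ILMN_1229155) on 0 of 23. A match of letters is a description of the window and not a measured binding site.

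Detection meant a detection p below 0.01 on an array, and the 20585 probes detected on at least 3 arrays were tested. Of the 13 member probes 10 were tested, and these covered 6 of the 8 genes. The probes of Icam1, Icam2, Selp and Alcam, all 3 probes of Cdh13 and the brightest probe of Vcam1 (ILMN_2778655) were detected on all 23 arrays. A further probe of Vcam1, ILMN_2552295, was detected on 22 arrays, and ILMN_1232768 on 13. The probes of Sele and Madcam1 and 1 more probe of Vcam1 (ILMN_1241993) were detected on 0 of 23 arrays, with lowest detection p-values of 0.0513, 0.0139 and 0.0481, and a lack of signal from 1 probe does not show that a gene is silent. Signals are given as log2 units after background correction and quantile normalization of the 23 arrays, and they are compared between arrays for the same probe only. An array detected 17432 to 18657 probes. Pancreatic transcripts were abundant on 3 mesenteric arrays (AngII replicates 1 and 2, Sham replicate 1), and transcripts of skeletal muscle on 1 Sham abdominal array (replicate 1). Replicate numbers of arrays are names in the order of the intensity columns within a group and are not the numbers of the sample titles. Calls of member probes that change without these arrays are given beside the result. The endothelial markers Pecam1, Cdh5 and Vwf and the smooth muscle markers Acta2 and Myh11 were detected on every array, and the leukocyte marker Ptprc on none. Other leukocyte markers were mixed, with Csf1r and Cd3e detected on 23 arrays and Itgam and Cd4 on 0. The lack of Ptprc signal therefore does not show that leukocytes were absent. RNA came from whole vessel walls, in which fewer cells of a type and less RNA per cell cannot be told apart.

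**Figure D1:**
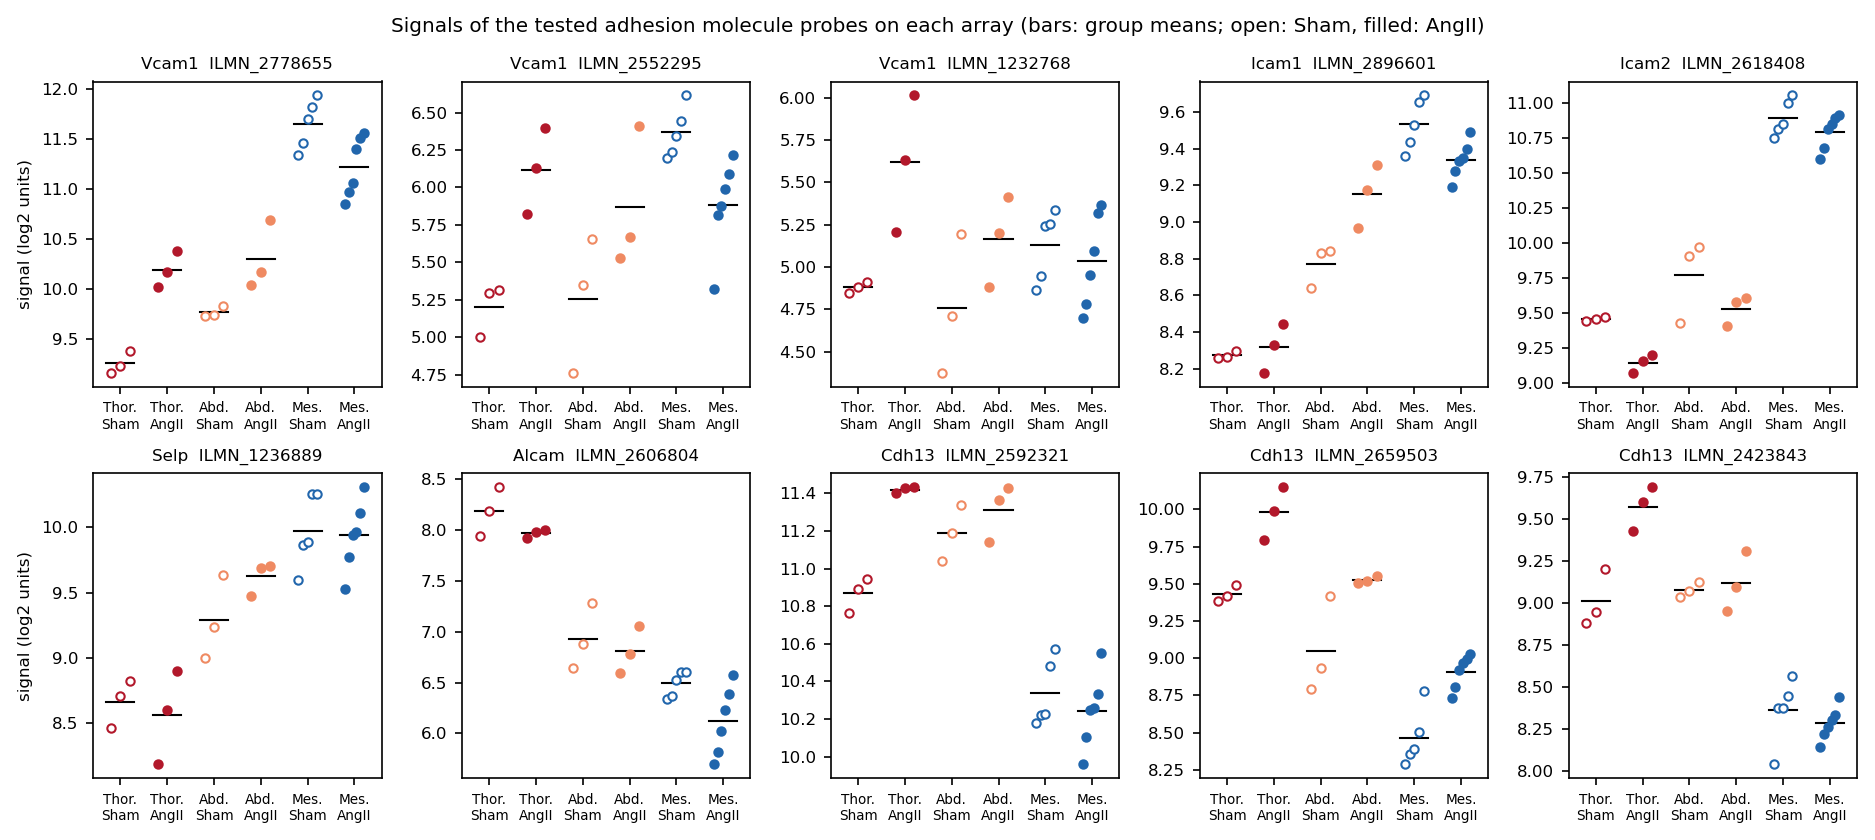
Signal (log2 units, vertical axis) of each of the 10 tested probes on each array, by vessel and treatment (horizontal axis). Open circles are Sham arrays, filled circles AngII arrays and bars group means. The Vcam1 probe ILMN_2778655 lay at 9.16 to 9.37 on thoracic Sham arrays and at 10.02 to 10.37 on thoracic AngII arrays, while every mesenteric array lay above 10.8.

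Vcam1 was the member with the largest rise in the thoracic aorta. Its brightest probe gave 9.16, 9.23 and 9.37 on the Sham arrays and 10.02, 10.17 and 10.37 on the AngII arrays. Every AngII array thus lay above every Sham array, by more than the spread within either group. The log2 difference was 0.93 (SE 0.11, a 1.91-fold rise, limma adjusted p = 0.0011). The probe ILMN_2552295 gave 4.999, 5.29 and 5.31 with Sham against 5.82, 6.13 and 6.40 with AngII, a difference of 0.92 (SE 0.15, adjusted p = 0.00465), again with no overlap. The dim probe ILMN_1232768 was not detected on any thoracic Sham array (4.85, 4.88 and 4.91) and gave 5.21, 5.63 and 6.01 with AngII. This is a rise of at least 1.53-fold over the lowest detected signal of the Sham arrays (adjusted p = 0.0214), and the call was lost without any 1 of the Sham arrays (adjusted p 0.0525 to 0.0619). Both brighter Vcam1 probes passed without each of the 6 arrays in turn, with differences of 0.84 to 1.02 and 0.77 to 1.06. With the authors' log2 values the 3 probes had 0.87, 0.27 (adjusted p = 0.0161) and 0.18 (adjusted p = 0.0722), so that the size of the rise in the dimmer probes depends on the processing.

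Of the other immunoglobulin-family members of the thoracic aorta, Icam1 and Alcam did not pass and Icam2 fell. Icam1, the integrin ligand that cytokines induce, gave 8.26, 8.26 and 8.30 with Sham and 8.18, 8.33 and 8.44 with AngII. The AngII arrays lay on both sides of the Sham arrays, and the difference was 0.043 (95% interval -0.17 to 0.26, adjusted p = 0.802), an interval that leaves out a change of the size seen for Vcam1. Icam2, the constitutive integrin ligand of endothelium, gave 9.44, 9.46 and 9.47 with Sham and 9.07, 9.15 and 9.20 with AngII. The groups did not overlap, and the difference of -0.31 (SE 0.085, adjusted p = 0.0358) passed. The fall of Icam2 missed the threshold without any 1 of the 6 arrays (adjusted p 0.052 to 0.104, differences -0.34 to -0.28) and in a single fit of all 6 groups (adjusted p = 0.0838). Alcam, the ligand of Cd6, gave 7.95, 8.19 and 8.43 against 7.92, 7.98 and 8.01, overlapping groups with a difference of -0.22 (95% interval -0.50 to 0.060, adjusted p = 0.258). P-selectin (Selp), which endothelium and platelets store in granules, gave 8.46, 8.70 and 8.83 with Sham and 8.18, 8.60 and 8.90 with AngII. These groups overlapped widely, with a difference of -0.11 (95% interval -0.50 to 0.29, adjusted p = 0.726).

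All 3 probes of Cdh13, the T-cadherin gene, rose in the thoracic aorta. The brightest, ILMN_2592321, went from 10.77, 10.89 and 10.95 with Sham to 11.40, 11.43 and 11.43 with AngII (log2 difference 0.55, SE 0.089, a 1.47-fold rise, adjusted p = 0.00404). ILMN_2659503 went from 9.39, 9.42 and 9.49 to 9.80, 9.99 and 10.15 (difference 0.55, adjusted p = 0.0101), and ILMN_2423843 from 8.88, 8.95 and 9.21 to 9.43, 9.61 and 9.69 (difference 0.56, adjusted p = 0.0124). None of the 3 probes had overlapping groups, and each passed without any 1 array. In total 7 of the 10 tested member probes, from 3 of the 6 genes, passed in the thoracic aorta, against 17.3% of all probes tested. Of these, 6 were higher with AngII (8.63% of all probes) and 1 was lower (8.62%). The same 7 had groups that did not overlap, as had 36.9% of all probes. The members were chosen with earlier results of these data known. The authors had listed Cdh13, whose 3 probes are among the 7, as raised in the thoracic aorta of these samples. Counts of members beside the share of all probes, here and below, are thus a description and not a test of the group. The median difference over the 10 probes was 0.55, and over all probes tested -0.022. Vcam1 and Cdh13 enter that median with 3 probes each, so it does not describe the 6 genes equally. The other genes, with 1 probe each, had 0.043 (Icam1), -0.31 (Icam2), -0.11 (Selp) and -0.22 (Alcam). With the mean signal of the endothelial markers as a covariate 0 of the 10 probes passed, and 2 of the 20585 did. That mean was itself higher on every thoracic AngII array (8.98 to 9.05) than on every Sham array (8.75 to 8.90), so in that fit the covariate and the treatment can hardly be told apart. The difference of the brightest Vcam1 probe was then 0.64 (adjusted p = 0.392) and that of Cdh13 ILMN_2592321 0.58 (adjusted p = 0.37).

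No member probe passed in the abdominal aorta, where 1.09% of all probes did, and 4 of the 10 had an unadjusted p under 0.05, as had 15.2% of all probes. Vcam1 ILMN_2778655 gave 9.72, 9.74 and 9.83 with Sham and 10.04, 10.16 and 10.69 with AngII. The groups did not overlap, and the AngII arrays spread more widely than the Sham arrays, with a difference of 0.53 (95% interval 0.16 to 0.91, adjusted p = 0.177). The other Vcam1 probes overlapped between groups and differed by 0.61 and 0.41 (adjusted p = 0.312 and 0.4). Icam1 gave 8.64, 8.83 and 8.84 against 8.97, 9.17 and 9.31, again without overlap (difference 0.38, 95% interval 0.094 to 0.66, adjusted p = 0.207). The third probe without overlap was Cdh13 ILMN_2659503, with 8.80, 8.94 and 9.42 against 9.50, 9.52 and 9.55 (difference 0.48, adjusted p = 0.206). Such separation upwards was found for 3 of the 10 member probes and for 9.91% of all probes. Cdh13 ILMN_2592321 and ILMN_2423843 differed by 0.12 and 0.042, so the probes of this gene disagreed there.

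The remaining members of the abdominal aorta had overlapping groups. Selp gave 8.9996, 9.24 and 9.63 with Sham and 9.48, 9.69 and 9.70 with AngII (difference 0.33, 95% interval -0.034 to 0.70, adjusted p = 0.377). Icam2 gave 9.43, 9.91 and 9.97 against 9.41, 9.58 and 9.61 (difference -0.24, 95% interval -0.59 to 0.11, adjusted p = 0.496), with 1 low Sham array inside the AngII range. Alcam differed by -0.12 (95% interval -0.53 to 0.28, adjusted p = 0.786). In a single fit of all 6 groups, which pools the spread of the 23 arrays, Icam1 (adjusted p = 0.0414) and Cdh13 ILMN_2659503 (adjusted p = 0.047) passed, as did 4.76% of all probes. Without the Sham array rich in skeletal muscle transcripts 0 of the 10 probes passed. Only 4 of all 20585 probes did, so that fit says little about the members. Brown adipocyte transcripts also differed between arrays of this vessel. By replicate number, the marker Ucp1 gave 10.67, 9.28 and 4.36 on AngII arrays and 4.29, 6.32 and 5.92 on Sham arrays. With the mean of Ucp1 and Cidea as a covariate 0 of the 10 probes passed, against 0.262% of all probes. The part of brown fat was not tested further.

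In the mesenteric arteries 0 of the 10 member probes passed, against 0.34% of all probes, while 5 had an unadjusted p under 0.05 (15.7% of all probes), and 0 had groups that did not overlap (2.52% of all probes). The brightest Vcam1 probe gave 11.34, 11.46, 11.70, 11.82 and 11.94 on the Sham arrays, and its 6 AngII arrays had a lowest signal of 10.84, a median of 11.23 and a highest of 11.56. The AngII arrays reached lower than any Sham array but overlapped with the lower Sham arrays, with a difference of -0.43 (95% interval -0.75 to -0.11, adjusted p = 0.183). ILMN_2552295 gave 6.197 to 6.62 with Sham and 5.32 to 6.22 with AngII (median 5.93), a difference of -0.48 (95% interval -0.78 to -0.19, adjusted p = 0.121). The point estimates of both probes were below 0 in this vessel and above 0 in the aorta. The mean signal of the endothelial markers was 10.39 to 10.61 on the AngII and 10.58 to 10.71 on the Sham arrays of this vessel, and with it as a covariate the differences were -0.052 (adjusted p = 0.931) and -0.17 (adjusted p = 0.736). The marker ranges of the 2 groups barely overlap, and with the covariate 0 of all 20585 probes passed. Covariate and treatment can thus hardly be told apart in that fit. Without the 3 pancreas-rich arrays, and with no covariate, the differences of the 2 probes were -0.31 (adjusted p = 0.518) and -0.40 (adjusted p = 0.371). Icam1 gave 9.36, 9.44, 9.53, 9.65 and 9.69 with Sham and 9.19 to 9.49 with AngII (median 9.34), a difference of -0.19 (95% interval -0.37 to -0.019, adjusted p = 0.267). Alcam differed by -0.37 (95% interval -0.67 to -0.070, adjusted p = 0.224), with Sham arrays at 6.34 to 6.61 and AngII arrays at 5.69 to 6.57. Icam2 and Selp differed by -0.10 (95% interval -0.28 to 0.078) and -0.033 (95% interval -0.35 to 0.28).

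The probes of Cdh13 disagreed in the mesenteric arteries. ILMN_2659503 gave 8.29, 8.36, 8.39, 8.51 and 8.78 with Sham and 8.73 to 9.03 with AngII (median 8.94), so that 1 Sham array reached into the AngII range. Its difference of 0.44 (SE 0.094) had an adjusted p of 0.061, and with the authors' values, an offset of 50, a prior that follows the signal or a single fit of 6 groups it passed (adjusted p = 0.0448, 0.0461, 0.0285 and 0.0268). It also passed without Sham replicate 4 (adjusted p = 0.0233). ILMN_2592321 and ILMN_2423843 had differences of -0.094 (95% interval -0.33 to 0.14) and -0.077 (95% interval -0.28 to 0.12). Which transcripts of Cdh13 the 3 probes read is not given in the sources used here.

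**Figure D2:**
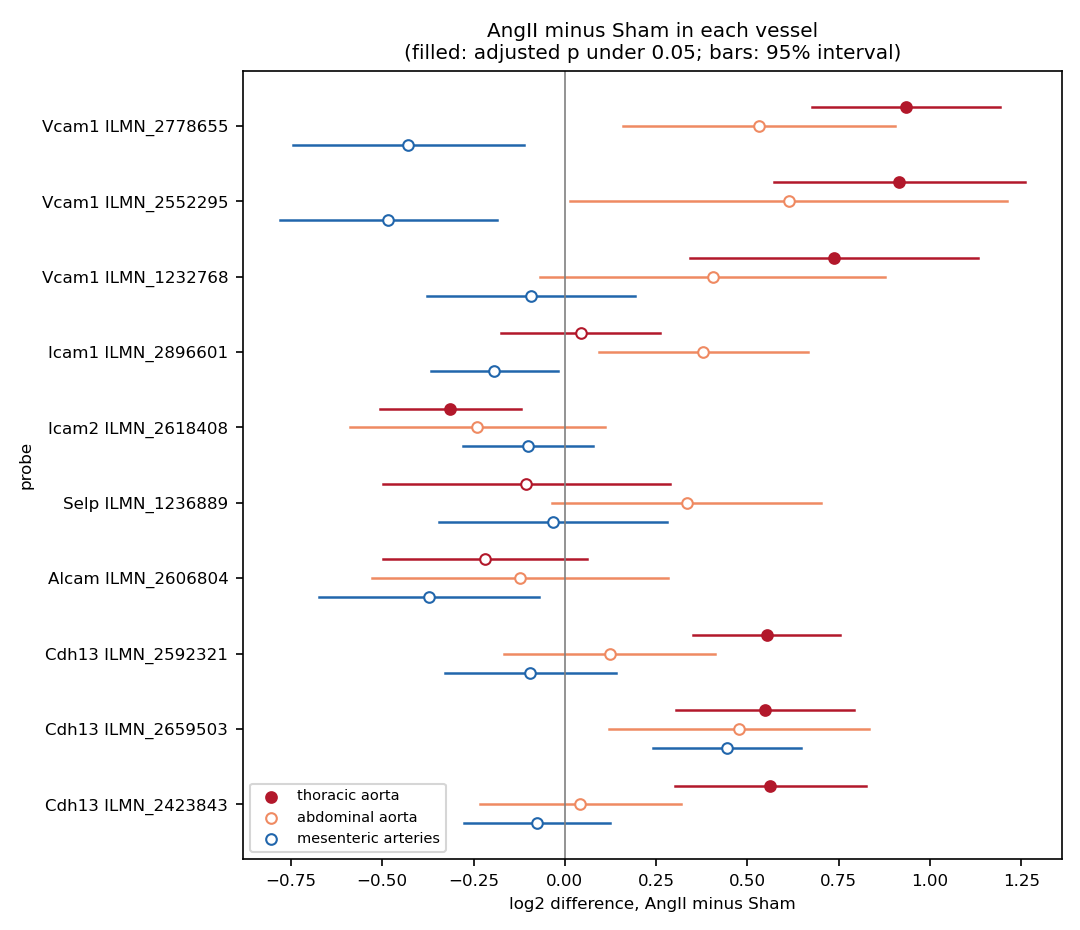
Log2 difference between AngII and Sham (horizontal axis) for each tested probe (vertical axis) in the 3 vessels, with 95% intervals, where filled symbols mark an adjusted p under 0.05. The Vcam1 probes lie to the right of 0 in both parts of the aorta, at 0.93 and 0.53 for ILMN_2778655, and to the left of 0 in the mesenteric arteries, at -0.43.

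Whether the Ang II effect differed between vessels was tested as an interaction. Between thoracic aorta and mesenteric arteries 5 member probes passed, against 11.4% of all probes, and all 5 were higher in the thoracic aorta (5.44% of all probes). They were the 3 Vcam1 probes, whose effects differed by 1.36 (SE 0.23, adjusted p = 0.000626), 1.40 (adjusted p = 0.00343) and 0.83 (adjusted p = 0.0435), and 2 Cdh13 probes, ILMN_2592321 (0.65, adjusted p = 0.0122) and ILMN_2423843 (0.64, adjusted p = 0.00864). The call of the dim Vcam1 probe ILMN_1232768 held in 5 of 17 fits that each left out 1 array, and was lost without the 3 pancreas-rich mesenteric arrays (0.77, adjusted p = 0.0832). Cdh13 ILMN_2659503 differed by 0.10 (95% interval -0.25 to 0.46). The effects on Icam1, Icam2, Selp and Alcam differed by 0.24, -0.21, -0.072 and 0.15, and none of these passed. Between abdominal aorta and mesenteric arteries 2 member probes passed (1.85% of all probes, and 1.32% with a higher value in the aorta), Vcam1 ILMN_2778655 with 0.96 (SE 0.23, adjusted p = 0.0344) and Icam1 with 0.57 (SE 0.13, adjusted p = 0.0263). They held in 9 and 14 of the 17 fits that left out 1 array, and Icam1 was lost without abdominal AngII replicate 1 or 2 or abdominal Sham replicate 1 (adjusted p = 0.125, 0.0649 and 0.0963). Leaving out the 3 pancreas-rich mesenteric arrays, neither passed (adjusted p = 0.0964 and 0.0755) and the same held without the muscle-rich Sham abdominal array (adjusted p = 0.0862 and 0.0963). Between the aortic compartments 0 of 10 passed (0.452% of all probes in limma), and 3 of the 10 had an unadjusted p under 0.05, as had 9.74% of all probes. For Vcam1 ILMN_2778655 that difference in effect was 0.40 (95% interval -0.15 to 0.95) and for Icam1 -0.34 (95% interval -0.65 to -0.024).

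In Sham mice most members differed between vessels. Vcam1 ILMN_2778655 was at 11.34 to 11.94 in mesenteric arteries, 9.72 to 9.83 in abdominal aorta and 9.16 to 9.37 in thoracic aorta, 3 ranges that did not overlap. Against mesenteric arteries the log2 difference was -2.40 in thoracic aorta (SE 0.17, 5.27-fold lower, adjusted p = 3.65e-11) and -1.89 in abdominal aorta (SE 0.17, 3.70-fold lower, adjusted p = 3.56e-09), and the aortic compartments differed by -0.51 (adjusted p = 0.0755), which did not pass. Even the AngII arrays of the aorta, at 10.02 to 10.69 with this probe, stayed below every mesenteric array. The probe ILMN_2552295 had smaller differences from mesenteric arteries, -1.17 in thoracic and -1.11 in abdominal aorta, which passed. The dim Vcam1 probe ILMN_1232768 differed by -0.25 (adjusted p = 0.288) and -0.37 (adjusted p = 0.118), and neither passed. Icam1 had its highest Sham level in mesenteric arteries (9.36 to 9.69), then in abdominal (8.64 to 8.84) and thoracic aorta (8.26 to 8.30), and each step passed (thoracic against mesenteric -1.26, abdominal against mesenteric -0.76, thoracic against abdominal -0.50 with adjusted p = 0.00248). Icam2 was at 10.75 to 11.05 in mesenteric arteries, 9.43 to 9.97 in abdominal and 9.44 to 9.47 in thoracic aorta, with differences of -1.44 and -1.12 from mesenteric arteries that passed and -0.31 between the aortic compartments that did not (adjusted p = 0.0881). Selp followed the order of Icam1, at 9.59 to 10.26, 8.9996 to 9.63 and 8.46 to 8.83. Its abdominal and mesenteric arrays overlapped by a little, and its difference between thoracic and abdominal aorta (-0.63, adjusted p = 0.0419) was lost without any 1 of the thoracic Sham arrays and without abdominal Sham replicate 2 or 3 (adjusted p 0.0539 to 0.231).

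Alcam had the opposite order. It was at 7.95, 8.19 and 8.43 in thoracic aorta, 6.64, 6.88 and 7.28 in abdominal aorta and 6.34 to 6.61 in mesenteric arteries. The thoracic level was 1.70 above the mesenteric (SE 0.17, 3.24-fold, adjusted p = 1.38e-08) and 1.25 above the abdominal level (SE 0.19, adjusted p = 5.45e-05). Between abdominal aorta and mesenteric arteries the difference of 0.44 passed (adjusted p = 0.0373) and was lost without abdominal Sham replicate 1 or 3 or mesenteric Sham replicate 2 or 4 (adjusted p 0.0653 to 0.261). Abdominal Sham replicate 1 is the muscle-rich array, and the difference also missed the threshold without the 3 pancreas-rich arrays (0.45, adjusted p = 0.0564). Of the 11 alternative settings, in which leaving out the muscle-rich or the pancreas-rich arrays is counted, it passed in 4. Cdh13 was higher in the aorta than in mesenteric arteries with all 3 probes, by 0.53 to 0.97 in thoracic and by 0.59 to 0.85 in abdominal aorta, and its aortic compartments differed by -0.32, 0.38 and -0.065 with the 3 probes, none of which passed. The value of 0.38 (ILMN_2659503, adjusted p = 0.068) passed without the muscle-rich array (0.57, adjusted p = 0.00507), with the trended robust prior (adjusted p = 0.0466) and with the authors' values (0.44, adjusted p = 0.00139, or 0.0145 with a replicate block). Counted by probe, 9 of 10 passed between thoracic aorta and mesenteric arteries (4 higher and 5 lower). The background was 51.8% of all probes, with 29.2% higher and 22.5% lower. Abdominal aorta and mesenteric arteries also differed in 9 probes, 4 higher and 5 lower, against 45.9% of all probes (24.9% higher and 21% lower). The aortic compartments differed in 3, 1 higher and 2 lower in the thoracic aorta, against 13.8% (6.45% higher and 7.35% lower). In a further fit the replicate numbers of the titles were assumed to pair the aortic arrays, which neither the labels nor the data settle. With the number as a block, on the authors' values, 7 probes passed, 2 higher and 5 lower, against 66.9% of all probes. The same values without the block gave 5, 2 higher and 3 lower, against 58.5% of all probes. The brightest Vcam1 probe, with -0.29, passed with the block (adjusted p = 0.00353) and not without it (adjusted p = 0.183). Its call with the authors' values thus rests on the assumed pairing.

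The levels between vessels depend in part on the normalization. The medians of the authors' log2 columns were 6.77 for thoracic, 7.03 to 7.04 for abdominal and 6.95 to 6.96 for mesenteric samples. With these values the median difference of all tested probes moved from 0.072 to -0.28 between thoracic aorta and mesenteric arteries, from 0.047 to -0.20 between abdominal aorta and mesenteric arteries and from 0.015 to -0.12 between the aortic compartments. The lower aortic levels of Vcam1, Icam1, Icam2 and Selp remained, at -2.73, -1.46, -1.79 and -1.56 for the thoracic aorta (Vcam1 by its brightest probe). The higher thoracic level of Alcam remained too, at 0.64, but in the abdominal aorta Alcam had a difference of -0.062. The Cdh13 probes had 0.11, 0.41 and 0.12 in the thoracic aorta, of which 1 passed, and 0.20, -0.035 and 0.059 in the abdominal aorta, of which 0 passed. Thus 2 member probes were higher and 6 lower in the thoracic aorta with these values, against 87% of all probes, and 0 higher and 5 lower in the abdominal aorta, against 68.4% of all probes.

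**Figure D3:**
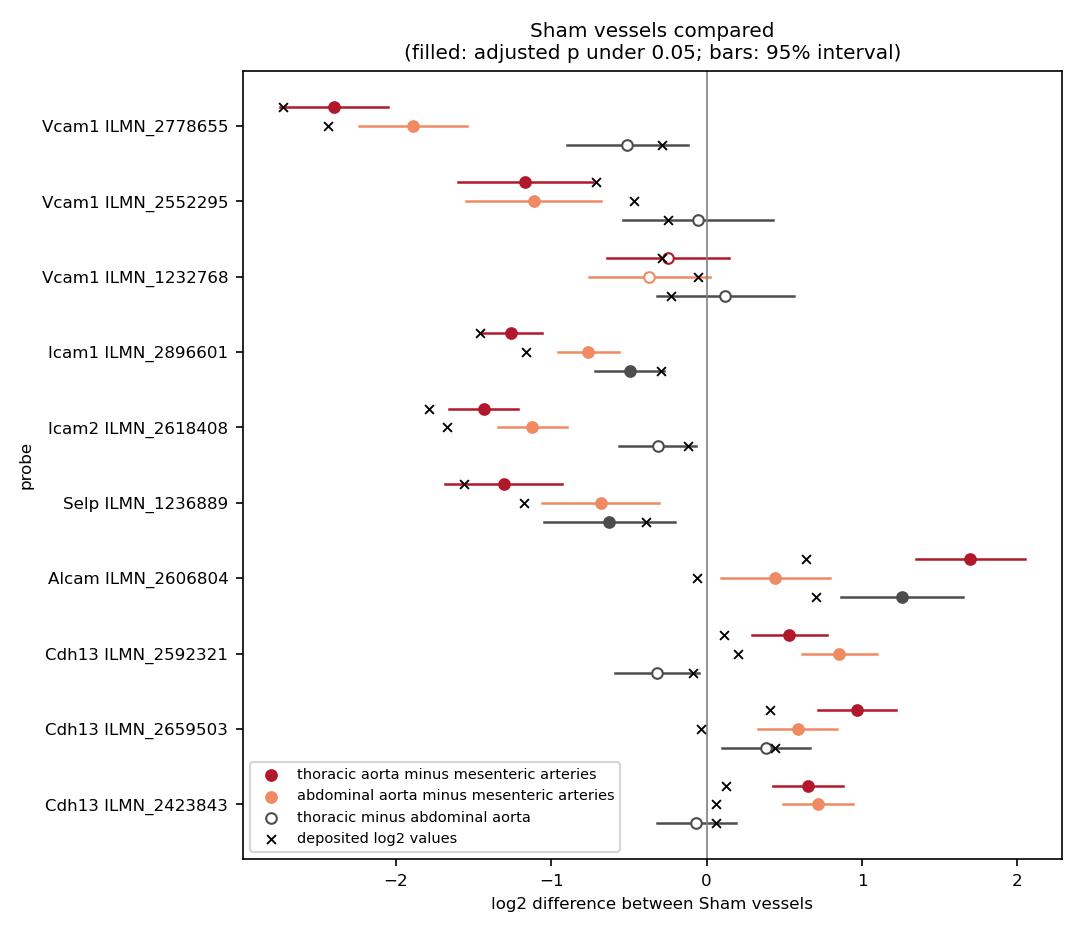
Log2 differences between Sham vessels (horizontal axis) for each tested probe (vertical axis), with 95% intervals, where filled symbols mark an adjusted p under 0.05 and crosses give the same difference from the deposited log2 values. For the aorta against mesenteric arteries, Icam1, Icam2, Selp and both brighter Vcam1 probes lie to the left of 0 with either set of values. The circles of the dim Vcam1 probe ILMN_1232768 lie nearer to 0 and are open (-0.25 in thoracic and -0.37 in abdominal aorta). The crosses of Cdh13 lie nearer to 0 than its circles in the comparisons with mesenteric arteries (0.11 against 0.53 for ILMN_2592321 in thoracic aorta).

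Markers of the cells that carry these molecules moved between the same groups. Of 20 endothelial markers 18 were measured, and all 18 were lower in Sham thoracic aorta than in mesenteric arteries (median -1.76), as they were in abdominal aorta (median -1.28). Their summed signal was 11703 to 12615 on Sham thoracic, 14302 to 19842 on Sham abdominal and 36330 to 41168 on Sham mesenteric arrays. Macrophage markers were lower in the aorta too, 11 of 12 in each comparison with mesenteric arteries. With Ang II in the thoracic aorta 5 endothelial markers rose and 1 fell, the junction protein Pecam1 (log2 difference -0.54, adjusted p = 0.0171). Their summed signal with AngII, 12297 to 13143, overlapped with that of Sham. Macrophage markers rose there for 5 of 12 (median 0.50), with sums of 3662 to 4179 with Sham and 4619 to 7997 with AngII. In the abdominal aorta 2 of 12 rose (median 0.77), with sums of 4404 to 5321 and 7023 to 10922, and in the mesenteric arteries 0 of 12, with sums of 9322 to 10967 and 8514 to 11028.

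Fibroblast markers rose for 8 of 10 in the thoracic aorta (sums 24204 to 25572 with Sham and 35095 to 39030 with AngII), for 4 of 10 in the abdominal aorta (28696 to 31102 and 38051 to 39845) and for 0 of 10 in the mesenteric arteries (28530 to 35773 and 30579 to 34262). Of 10 smooth muscle markers 4 fell in the thoracic aorta, among them Myh11 (-0.52, adjusted p = 0.00472), with sums of 54860 to 58265 and 47511 to 49535, and 5 of 10 adipocyte markers rose there, with sums of 2958 to 5649 and 6437 to 8638. None of the 4 measured platelet markers passed with Ang II in any vessel, with sums of 415 to 478 and 456 to 711 in the thoracic aorta. Of 12 markers of lymphocytes and neutrophils 5 were measured, 2 of them rose in the thoracic aorta, and the sums of 240 to 292 and 255 to 336 overlapped. The part of these cells in the member results was not tested beyond the endothelial and brown adipocyte covariates above.

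**Figure D4:**
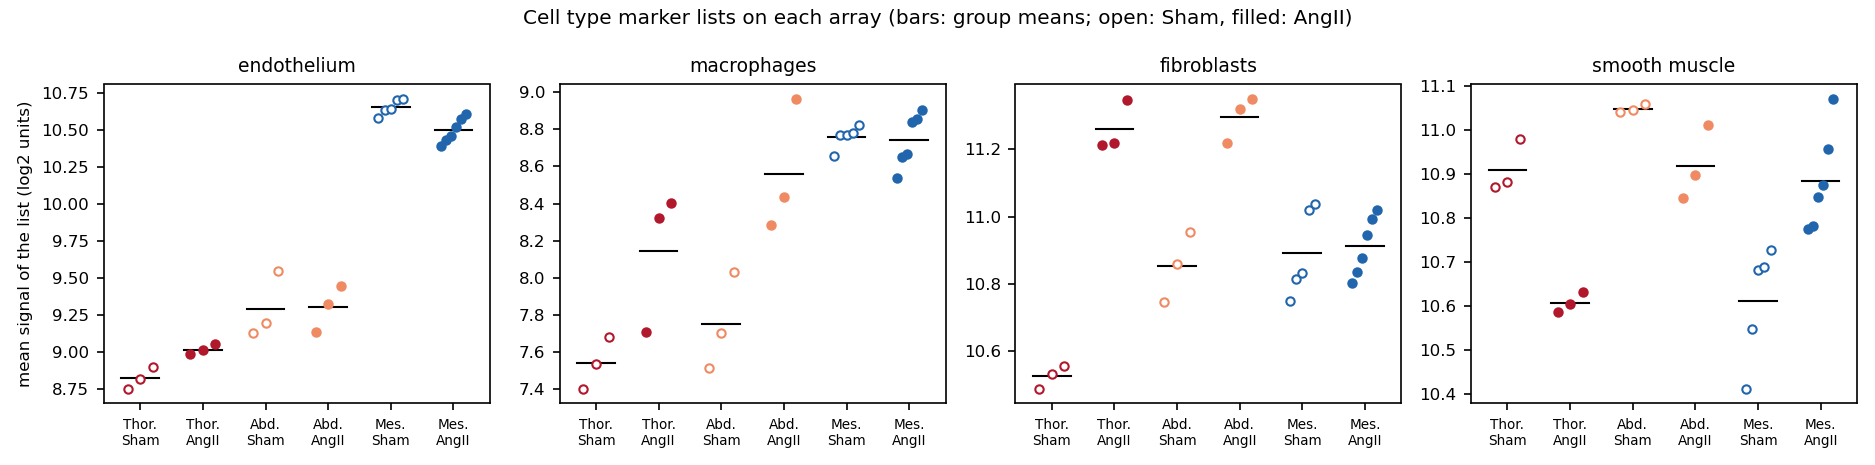
Mean signal (log2 units, vertical axis) of the measured markers of 4 cell types on each array, by vessel and treatment (horizontal axis), with open circles for Sham, filled circles for AngII and bars for group means. Endothelial means are highest in mesenteric arteries, and in the thoracic aorta they are 8.75 to 8.90 with Sham and 8.98 to 9.05 with AngII.

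Partners of the members were described from 5 lists. Of 17 leukocyte ligands and rolling partners 12 were measured, and with AngII 3 rose in thoracic aorta, 2 in abdominal aorta and 0 in mesenteric arteries, with none that fell (medians 0.089, 0.27 and 0.065). Selplg, the ligand of P-selectin, rose by 1.01 (adjusted p = 0.00481) in the thoracic aorta and differed by 1.03 (adjusted p = 0.0955) in the abdominal aorta. Cd44, a hyaluronan receptor that can also bind selectins, rose in both (1.07 with adjusted p = 0.000433, and 0.85 with adjusted p = 0.0146), and the sialomucin Cd34 rose in the thoracic aorta (0.49, adjusted p = 0.0346). Itgae, an integrin chain of T cells in epithelia, rose in the abdominal aorta (0.84, adjusted p = 0.0496). The chain Itgb2 of the Icam1 receptors had -0.041 in the thoracic aorta (adjusted p = 0.842), and Itga4, the Vcam1 receptor chain named after its values were seen, had 0.099 (adjusted p = 0.606). Of 7 measured enzymes that build selectin ligands, 1 rose in the thoracic aorta, the sialyltransferase St3gal4 (0.73, adjusted p = 0.0324), and 0 passed in the other vessels.

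Among 14 genes of endothelial junctions and transmigration 2 rose and 3 fell in the thoracic aorta (median 0.043), and 0 passed in the other vessels. Besides Pecam1, Aoc3, an amine oxidase also known as vascular adhesion protein, fell by 0.56 (adjusted p = 0.00342), and the endothelial and smooth muscle adhesion molecule Mcam, named after its values were seen, fell by 0.36, while Ninj1 and Nectin2 rose by 0.64 (adjusted p = 0.0125) and 0.36 (adjusted p = 0.0281). The junction gene Jam3 had 0.014 (adjusted p = 0.974). Of 7 measured partners in anchorage and granules, Adipoq, which encodes the T-cadherin ligand adiponectin and is a marker of adipocytes, rose in the thoracic aorta (1.19, adjusted p = 0.002), and Vwf, stored with P-selectin in endothelial granules, had -0.13 (adjusted p = 0.452). Of 16 measured inducing cytokines, receptors and NF-kappaB components 3 rose there (median 0.003), namely the kinase subunit Ikbkg (0.57, adjusted p = 0.00434), the TNF receptor Tnfrsf1b (0.73, adjusted p = 0.0216) and the cytokine Il1b (0.80, adjusted p = 0.0465). Il1b had a difference of 2.11 in the abdominal aorta that did not pass (adjusted p = 0.0793) and 0.043 in the mesenteric arteries. Il13 did not pass in any vessel. The medians of all tested probes were -0.022 in each part of the aorta and -0.0041 in the mesenteric arteries.

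For each tested member probe the genes most like it were sought, by the Pearson correlation of deviations from the 6 group means over the 23 arrays among 10949 genes, as a description. Vcam1 ILMN_2778655 was most like Rhbdd1 (r = 0.91) and Spindoc (0.90), and Spindoc was also nearest to Vcam1 ILMN_2552295 (0.76, followed by Gprc5a at 0.76). Icam1 was nearest to Tpm3 (0.78) and Srgn (0.77), Icam2 to Nrarp and Slc52a3 (both 0.78), Selp to Tgs1 (0.83) and Fli1 (0.82), and Alcam to Suclg2 (0.85) and Homer1 (0.80). The 3 Cdh13 probes had different nearest genes, Lama5 and Emsy (both 0.85) for ILMN_2592321, Dctn4 (0.77) and Rabgef1 (0.74) for ILMN_2659503 and Gtf2e2 (0.83) and Ltbp1 (0.81) for ILMN_2423843. The dim Vcam1 probe ILMN_1232768 was nearest to Erg28 (0.82) and Plce1 (0.80). The arrays share their normalization, and each value is the highest or next highest of 10949 correlations.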

How the data were processed

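RNA pools of 3 kinds of artery were hybridised to 23 Illumina WG-6 v2.0 BeadChip arrays, scanned on a HiScan. The deposited probe intensities had a background subtracted by the authors and were not normalized between arrays, and a detection p-value was deposited for each. The authors also deposited log2 values after a robust spline normalization (lumi, R 3.0.2), used here as an alternative. In R 4.3.3 with limma 3.58.1, the intensities were background corrected and quantile normalized over all arrays with neqc (offset 16, negative controls inferred from the detection p-values). The test took probes detected (detection p below 0.01) on 3 arrays or more. A limma fit per vessel set AngII against Sham, and a fit of 6 group means gave the differences between Sham vessels and between effects, with Benjamini-Hochberg adjustment over all 20585 probes and a threshold of 0.05. The scripts were tested on simulated data. Probes were named from the platform annotation, in which 34885 probes had 1 symbol, 18 several and 10378 none.

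The members and gene lists were chosen with earlier results of these data known. All member probes were named, and from each partner list up to 4 genes that passed with AngII in any vessel, by their adjusted p in the thoracic aorta, and 1 that did not pass, the one with the highest p there. Intensity columns were assigned to groups by their names, and the 23 columns each ranked probes most like a deposited log2 column of the same group. Arrays were numbered in column order, and the numbers of the sample titles entered through the log2 columns in the pairing check and the replicate block. Between thoracic and abdominal aorta every pair of the same number deviated together (correlations 0.10 to 0.25 for Sham and 0.27 to 0.48 for AngII). Of these pairs, 2 of 3 for Sham and 3 of 3 for AngII were closest to their own number. With 3 pairs for each treatment this check cannot show pairing. AngII and Sham samples of 1 vessel are different mice, yet 2 of 3 thoracic and 2 of 3 abdominal pairs were closest to their own number. The block between the aortic compartments thus rests on an assumed pairing that the labels do not give. The highest correlation between 2 arrays was 0.994. The precision is limited by the number of arrays. Alternatives were the authors' values, no further background correction, cyclic loess, an offset of 50, other filters, a trended robust prior, other sets of samples, marker covariates, a replicate block and leaving out each array. Leaving out arrays rich in pancreatic (3) or skeletal muscle transcripts the brown adipocyte covariate and the replicate block for differences in effect were chosen after seeing the data. Promoter sequences were from RefSeq, and figures were drawn with matplotlib 3.10.9.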

Additional observations from a re-analysis of the deposited data

Results flagged for a closer look

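The effect of Ang II differed between vessels in 7 comparisons of 6 member probes, in the test of the difference itself (limma interaction). Between thoracic aorta and mesenteric arteries the effects differed by 1.36, 1.40 and 0.83 on the log2 scale for the Vcam1 probes ILMN_2778655, ILMN_2552295 and ILMN_1232768, and by 0.65 and 0.64 for the Cdh13 probes ILMN_2592321 and ILMN_2423843. Between abdominal aorta and mesenteric arteries they differed by 0.96 for Vcam1 ILMN_2778655 and by 0.57 for Icam1. Of all probes, 11.4% passed in the first of these comparisons and 1.85% in the second. The call of ILMN_1232768 held in 5 of 17 fits without 1 array. Neither call of the abdominal comparison held without the 3 pancreas-rich arrays or without the muscle-rich array. No array stood far from the others of its group in the 20 combinations of a probe with a group of 4 or more arrays that were examined.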

How the results depend on the processing

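Of the 90 differences of member probes, 35 passed. Of 930 values under other settings, 853 kept direction and side of the threshold, 38 lost the call, 19 gained it and 20 changed sign. Of 910 values without 1 array, 839 were kept, 41 lost, 6 gained and 24 changed sign. The cause of these changes was not tested.

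The number of member probes that passed with AngII in the thoracic aorta was 0 with the endothelial covariate (2 of all probes) and 5 to 6 without 1 array. In the abdominal aorta it was 2 in a single fit of 6 groups (4.76% of all probes against 1.09%) and 0 to 0 without 1 array. In the mesenteric arteries it was 1 with the authors' values, an offset of 50, the trended robust prior or a single fit (0.69, 0.612, 1.07 and 1.9% of all probes), and 0 to 1 without 1 array. For Sham abdominal aorta against mesenteric arteries it was 5 with the authors' values and 5 with the replicate block (68.4 and 58.9% of all probes), and 8 to 10 without 1 array. For the Sham aortic compartments it was 5 with the authors' values and 7 with the replicate block (58.5 and 66.9% of all probes, against 13.8%), and 2 to 4 without 1 array. For Sham thoracic aorta against mesenteric arteries it was 9 to 9 without 1 array. For the difference in effect between abdominal aorta and mesenteric arteries it was 1 with the authors' values, 1 with no filter, 0 without the 3 arrays rich in pancreatic transcripts, 0 without the array rich in skeletal muscle transcripts (0.69, 0.521, 1.32 and 0.491% of all probes), and 0 to 3 without 1 array. For thoracic aorta against mesenteric arteries it was 4 to 5, and for the aortic compartments 0 to 0, without 1 array.

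Signs changed as follows. With the endothelial covariate, Icam1 had -0.066 in the thoracic aorta, and in the mesenteric arteries Vcam1 ILMN_1232768 had 0.14, Icam2 0.078, Selp 0.37, Cdh13 ILMN_2592321 0.15 and ILMN_2423843 0.051. With the brown adipocyte covariate Alcam had 0.056 in the abdominal aorta, and without the 3 pancreas-rich arrays Selp had 0.078 in the mesenteric arteries. Between Sham abdominal aorta and mesenteric arteries Alcam had -0.062 with the authors' values and -0.066 with the block, and Cdh13 ILMN_2659503 had -0.035 with the authors' values. Between Sham aortic compartments Vcam1 ILMN_1232768 had -0.23 with the authors' values and with the block, -0.12 with no background correction and -0.071 without the muscle-rich array, Vcam1 ILMN_2552295 had 0.15 without that array, and Cdh13 ILMN_2423843 had 0.063 with the authors' values and the block. The difference in effect was -0.011 for Alcam between thoracic aorta and mesenteric arteries with the authors' values, and -0.11 for Cdh13 ILMN_2659503 between the aortic compartments without the muscle-rich array.

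Without 1 array, ranges that crossed 0 were, with AngII, Icam1 -0.020 to 0.11 and Selp -0.27 to 0.083 in the thoracic aorta, Cdh13 ILMN_2423843 -0.053 to 0.13 and Alcam -0.27 to 0.051 in the abdominal aorta, and Selp -0.13 to 0.048 in the mesenteric arteries. Between Sham aortic compartments they were Vcam1 ILMN_2552295 -0.30 to 0.15 and ILMN_1232768 -0.071 to 0.34. For differences in effect they were Selp -0.24 to 0.12 (thoracic against mesenteric), Cdh13 ILMN_2659503 -0.095 to 0.22 (abdominal against mesenteric), and Cdh13 ILMN_2659503 -0.11 to 0.20, Alcam -0.27 to 0.052 and Icam2 -0.18 to 0.096 (thoracic against abdominal).

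AngII and Sham samples of 1 vessel with the same number in the titles did not all deviate together in the mesenteric and thoracic arrays (correlations -0.56 to 0.86 and -0.013 to 0.20). In the abdominal arrays all correlations were above 0 (0.024 to 0.28). Closest to their own number were 2 of 3 abdominal, 2 of 5 mesenteric and 2 of 3 thoracic pairs. Mesenteric arteries against thoracic aorta had correlations of -0.19 to 0.11 for Sham and -0.0040 to 0.072 for AngII. Against abdominal aorta these were 0.0035 to 0.16, all above 0, and -0.22 to 0.062. For all of these comparisons the samples were taken to share only a number. With the replicate block, on the authors' values, 6, 0 and 0 member probes passed with AngII (thoracic, abdominal, mesenteric), as did 3575, 2 and 0 of all probes, and 8 and 5 in the Sham comparisons of thoracic and abdominal with mesenteric vessels (80.2 and 58.9% of all probes). Between the aortic compartments, where the numbers were assumed to pair the samples, 7 passed for Sham and 0 for the difference in effect (164 of all probes). Few arrays and dim signals, of the Vcam1 probe ILMN_1232768 above all, limit what can be seen.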
